A study of Mus musculus with 2 samples.

Results

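The genes described here encode nuclear subunits of the mitochondrial respiratory chain and of ATP synthase. They were taken by name: non-control probes on both arrays whose gene name begins with Nduf, Uqcr, Cox4 to Cox8 or Atp5, or is Sdha, Sdhb, Sdhc or Sdhd. This gave 113 probes for 82 genes out of 41171 probes and 27960 gene names. The rule itself uses names and no signal. By complex there were 35 genes of complex I, 4 of complex II, 7 of complex III, 18 of complex IV and 15 of complex V, 1 complex I assembly factor (Ndufaf1), and 2 genes whose names match but whose products are no subunits: Cox4nb, named for lying beside Cox4i1 and now called Emc8, and Atp5s, the coupling factor B gene now called Dmac2l. Ndufa4 was counted with complex IV, where its protein is now placed, although its name is that of a complex I gene.

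Complex I (NADH dehydrogenase) and complex II (succinate dehydrogenase) pass electrons to ubiquinone, complex III passes them on to cytochrome c, and complex IV (cytochrome c oxidase) hands them to oxygen. Complexes I, III and IV pump protons out of the matrix, and ATP synthase (complex V) uses their return to make ATP. Complex II is wholly nuclear-encoded, whereas the others also hold subunits encoded in mitochondrial DNA. Osteoclasts, the bone-resorbing cells that macrophage precursors give rise to, are rich in mitochondria.

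RNA came from RAW 264.7, a mouse macrophage-like tumour line that forms osteoclast-like cells under the cytokine RANKL, and was hybridised to Agilent whole mouse genome arrays in 1 colour. The RCCS group (1 array) was held for 24 h in a rotary cell culture system, a rotating vessel that models microgravity; the control group (1 array) was kept at ground level in parallel. The protocols, worded alike for both samples, name stimulation with RANKL (80 ng/ml, 24 h) but do not settle whether the control cells received it. Nothing in the labels says how many cultures each RNA came from. With 1 array a group there was no replicate, no test and no p-value, and the number of arrays limits the precision.

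Of the 82 genes, 80 were measured, that is, had a probe well above background on both arrays. Cox8b, the heart and skeletal muscle isoform of subunit VIII, was above background on the RCCS array alone, with a processed signal of 5.45 in control and 24.9 in RCCS, too dim to give a fold. Cox8c, the testis isoform, was above background on neither array (5.0 and 9.65). The 10 macrophage markers checked were all measured, among them Csf1r (43478 and 62140 by its brightest probe) and Cd68 (89271 and 101856). After the 75th percentile scaling described below, 9 of them had a log2 ratio above 0, where 61.8% of all measured genes were below 0. The ratios ran from -0.72 (Spi1) to 2.44 (Fcgr3), with Csf1r at 0.05 and Cd68 at 0.0048. Markers of other cells were mostly dim: 1 of 6 fibroblast markers was measured, 4 of 9 of striated muscle, 3 of 5 of testis germ cells, 2 of 4 of T cells and 2 of 3 of B cells. Summed signals over all listed markers were 189 in control and 607 in RCCS for fibroblasts, of which Dcn read 15.2 and 462, 488 and 661 for striated muscle, 329 and 336 for germ cells, 202 and 215 for T cells and 194 and 231 for B cells. Their part in the results was not tested.

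Signals were lower on the RCCS array for almost every respiratory chain gene once each array was scaled to its own 75th percentile, and by a small amount. Values below are processed signals, control first, and log2 ratios after this scaling unless stated otherwise. The log2 ratio, RCCS minus control, was below 0 for 79 of 80 measured genes, against 61.8% of the 15632 genes measured on the arrays. The median was -0.34 (1.26-fold lower), 0.21 below the median of all measured genes, which was -0.13. Complex III stood lowest at -0.46, followed by complex V at -0.43, complex II at -0.40, complex IV at -0.33 and complex I at -0.31. The scanner software's spot error of a typical member's log2 ratio was 0.20, or a 95% half-width of 0.40. The half-width comes from spot error alone and covers no difference between cultures or between arrays. Lying within it does not show the absence of a difference, and lying beyond it is no test. The differences between complexes were not tested.

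Whether the members stood below 0 depended on the scaling. With spike-in scaling 50 of 80 were below 0 and the median was -0.03, while the median of all measured genes was 0.18; with quantile normalization 46 of 80 were below 0 and the median was -0.06. The ratios also depended on signal: the trend over all measured probes was near 0 at middling signals, lower among the dimmest and lowest among the brightest, and these subunits are among the bright genes. The 1407 measured genes outside the group with a mean signal of at least 10000 had a median of -0.35, and the 66 members as bright had -0.34. Below 0 were 81.2% of these other genes and 100% of these members, or 53.1% and 53% after trend correction. The fitted trend had a median of -0.32 at the members' signals. After the trend was subtracted, the members' median was -0.02, with 46 below 0 and 34 above, and 75 of 80 lay within their own half-width of 0. By complex the trend-corrected medians were -0.0038 for I, -0.10 for II, -0.11 for III, 0.03 for IV and -0.08 for V.

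Among bright genes the members stood closer together than the others before the correction, and after it a smaller share of them was past 1.5-fold. The cut for bright genes used the mean log2 signal of a gene's measured probes, and left out Cox6a2, Cox7a1 and other members. Among these were genes with a bright and a dimmer probe, such as Ndufab1 (-0.58), Uqcrq (-0.56), Ndufb8 (-0.53), Sdha (-0.32), Atp5f1 (-0.15) and Ndufa3 (-0.07). At any signal the SD was 0.15 over the 73 subunits without restricted isoforms and 0.29 over all 80 members. Over the 66 bright members the SD of the log2 ratio was 0.14, against 0.49 over the 1407 other bright genes, and the quartiles were 0.20 apart against 0.46. Bright members at least 1.5-fold lower numbered 2 (3.03%) and those at least 1.5-fold higher 0, against 287 (20.4%) and 67 (4.76%) of the other bright genes. After trend correction 0 bright members were past 1.5-fold in either direction, against 92 lower and 138 higher among the other bright genes. Few were past it among the 75 mitochondrial ribosomal protein genes too, taken at any signal (3 lower and 0 higher). The spread between the bright members is smaller than the spot error the software assigns, which is a set value and not a measured one. With 1 array a group the difference in spread was not tested.

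**Figure D1:**
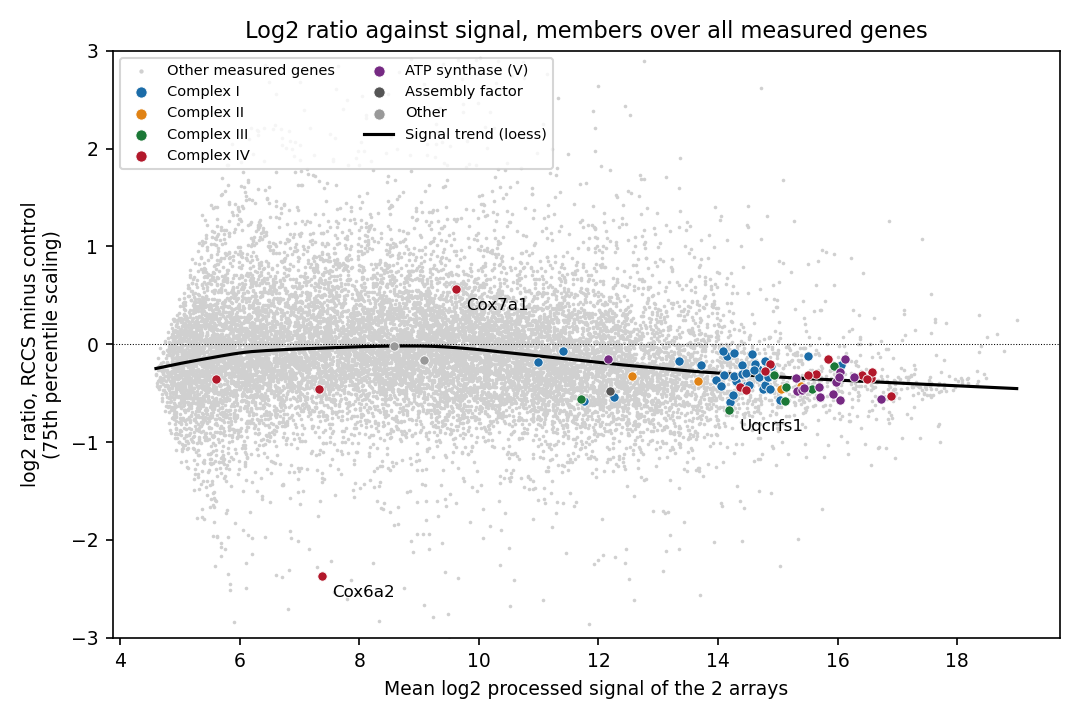
Log2 ratio (RCCS minus control, 75th percentile scaling) against mean log2 processed signal. Grey points are the other measured genes, coloured points the 80 measured members by complex, and the black line the loess trend; 53.0 other genes beyond 3 in either direction lie outside the axis. Most members sit at the bright end, close to the trend line, and Cox6a2 and Cox7a1 stand apart from it.

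At least 2-fold lower was 1 member, Cox6a2, and at least 2-fold higher were 0; over all measured genes 3.78% were at least 2-fold lower and 3.95% at least 2-fold higher. At 1.5-fold, 3 members were lower (background 14.8%) and 0 higher (background 9.72%). The other lower genes were Uqcrfs1 and Ndufa10. After trend correction 1 member was at least 2-fold lower (background 2.73%) and 0 were at least 2-fold higher (background 4.77%). By the same values 1 member was at least 1.5-fold lower, Cox6a2 (background 9.72%), and 1 higher, Cox7a1 (background 12.3%). The shares of members past 1.5-fold, 3.75% lower and 0% higher, were under the background in both directions.

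**Figure D2:**
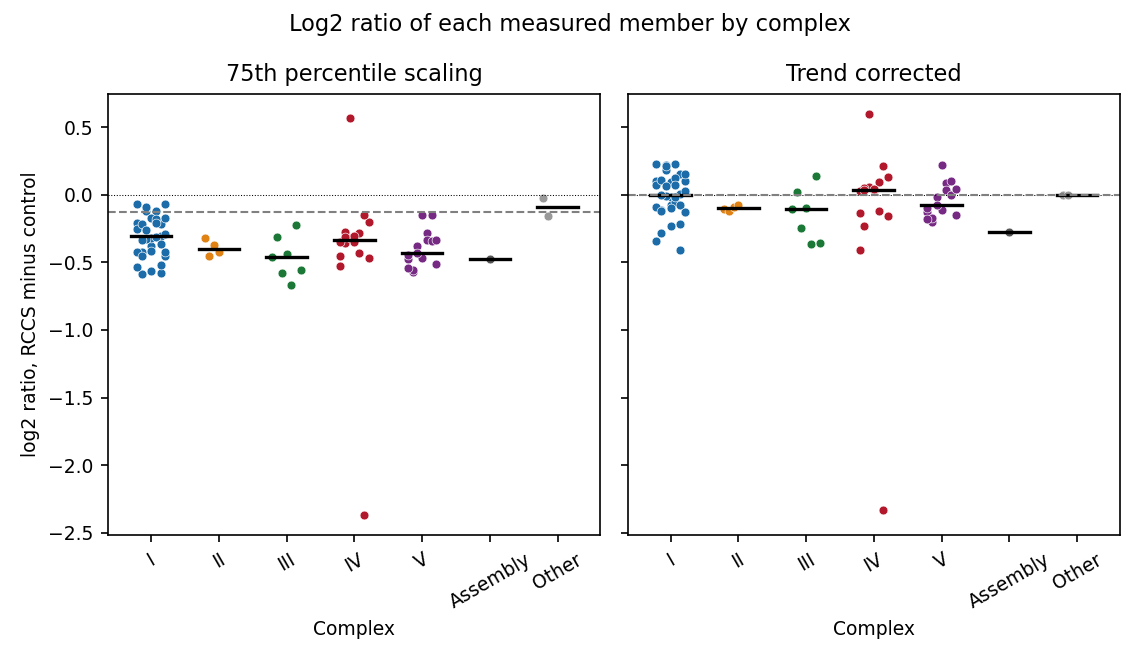
Log2 ratio of each measured member by complex, after 75th percentile scaling (left) and after trend correction (right). Points are genes, black bars group medians and the dashed line the median of all measured genes. On the left the medians of complexes I to V run from -0.46 to -0.31; on the right from -0.11 to 0.03.

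Complex I couples NADH oxidation to proton pumping. Its 35 genes ran from -0.59 (Ndufa10) to -0.07 (Ndufa3), and 35 of 35 were below 0; after trend correction 18 were below 0 and 17 above. The 7 nuclear core subunits, which form the electron path from NADH to ubiquinone, had a median of -0.37 (-0.07 trend-corrected), and the 28 supernumerary subunits -0.25 (0.03). Among core genes, Ndufs7, which holds the last cluster before ubiquinone, read 38303 in control and 29431 in RCCS, a log2 ratio of -0.57 (-0.23 trend-corrected). Ndufv2 was at -0.43, Ndufv1, which binds NADH, at -0.37, Ndufs8 at -0.31 and Ndufs3 at -0.29. Nearest to 0 was Ndufs1, the largest core subunit, with 13591 and 13372 (-0.21, or 0.07 trend-corrected). No core gene differed from the trend by more than its half-width.

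Of the supernumerary subunits, Ndufab1 encodes the mitochondrial acyl carrier protein, which also serves fatty acid and lipoic acid synthesis. Its brightest probe read 42487 in control and 29965 in RCCS, and the mean of its 3 measured probes was -0.58 (-0.41 trend-corrected, half-width 0.23). Those probes lay at -0.71, -0.69 and -0.34. Ndufa10 read 21788 and 16472, at -0.59 or 1.50-fold lower (-0.29 trend-corrected), and Ndufb8 was at -0.53. The value of Ndufb8 rests in part on a dim probe to a RIKEN cDNA (476 and 347, at -0.64), while its bright probe was at -0.43 (64370 and 54468). At the upper end stood Ndufs4 (16753 and 18137), Ndufb3 (19129 and 20406) and Ndufa3, with log2 ratios of -0.07, -0.09 and -0.07. The value of Ndufa3 is the mean of a bright probe at -0.25 (26438 and 25270) and a dim RIKEN probe at 0.11 (259.8 and 319.8). Trend-corrected, Ndufa13, an accessory subunit also known as GRIM-19, was highest at 0.23. Ndufaf1, which helps build complex I, read 5173 and 4228 (-0.48, or -0.28 trend-corrected).

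Complex II is the membrane-bound enzyme of the tricarboxylic acid cycle. Its 4 genes lay close together. Sdhb, the iron-sulfur subunit, read 37307 in control and 30917 in RCCS (-0.46), and the membrane anchors Sdhc (13951 and 12252) and Sdhd (46436 and 39373) were at -0.37 and -0.42. Sdha, the flavin subunit, was at -0.32, with its probes at -0.49 and -0.15. All 4 were below the trend, with trend-corrected values from -0.12 to -0.08, within their half-widths.

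Complex III had the lowest median of the 5 complexes, -0.46, or -0.11 after trend correction, with 5 of 7 genes below the trend. Uqcrfs1 encodes the Rieske iron-sulfur protein, which takes electrons from ubiquinol. Its single probe read 22111 in control and 15808 in RCCS, 1.59-fold lower. The log2 ratio was -0.67 with a half-width of 0.40, the lowest before trend correction among members other than Cox6a2. After correction it was -0.37, and Cox6b2 and Ndufab1 were also lower (both -0.41). Uqcrc1, a core protein, was lower by both probes (58901 and 45996, and 28644 and 21210, at -0.54 and -0.62; trend-corrected mean -0.24). Uqcrq was at -0.56, from a bright probe at -0.43 (70042 and 58928) and a dim RIKEN probe at -0.68 (207 and 147). Uqcr, now Uqcr11, was at -0.46 and the core protein Uqcrc2 at -0.44. The hinge protein gene Uqcrh (71179 and 68457, at -0.23) and Uqcrb (32801 and 30091, at -0.31) were the members of complex III above the trend.

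Complex IV has subunits in broad and in tissue-restricted forms, and the genes that stood apart were restricted ones. Cox6a2 encodes the heart and skeletal muscle form of subunit VIa. Its 1 probe read 353 in control and 77.6 in RCCS, 5.17-fold lower (log2 ratio -2.37 with a half-width of 0.44; -2.33 trend-corrected), a value below which 0.26% of measured genes lay. With normexp background correction it was at -1.75, the nearest to 0 among the alternatives. Cox6a1, the form found in most tissues, read 100734 and 93998 (-0.29, or 0.10 trend-corrected). Cox7a1, the muscle form of subunit VIIa, was the 1 member with a log2 ratio above 0 in this scaling. It read 605 in control and 1019 in RCCS, 1.48-fold higher (0.57 with a half-width of 0.40, and 0.51 to 0.87 over the alternatives). Its broad counterpart Cox7a2 was at -0.31 and Cox7a2l, which links complexes III and IV, at -0.43. Of 9 striated muscle markers 4 were measured, and their log2 ratios were -0.29 for Ckm, 0.13 for Actc1, 0.20 for Myl2 and 0.29 for Myh7. Ckm (43.7 and 40.8) and Myl2 (33.2 and 43.3) were dim, and the value of Myh7 is the mean of probes at -0.07 and 0.64. Of the other markers Tnnt2 read 10.2 and 62.0, Myh6 10.7 and 6.79. Their part in these values was not tested.

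**Figure D3:**
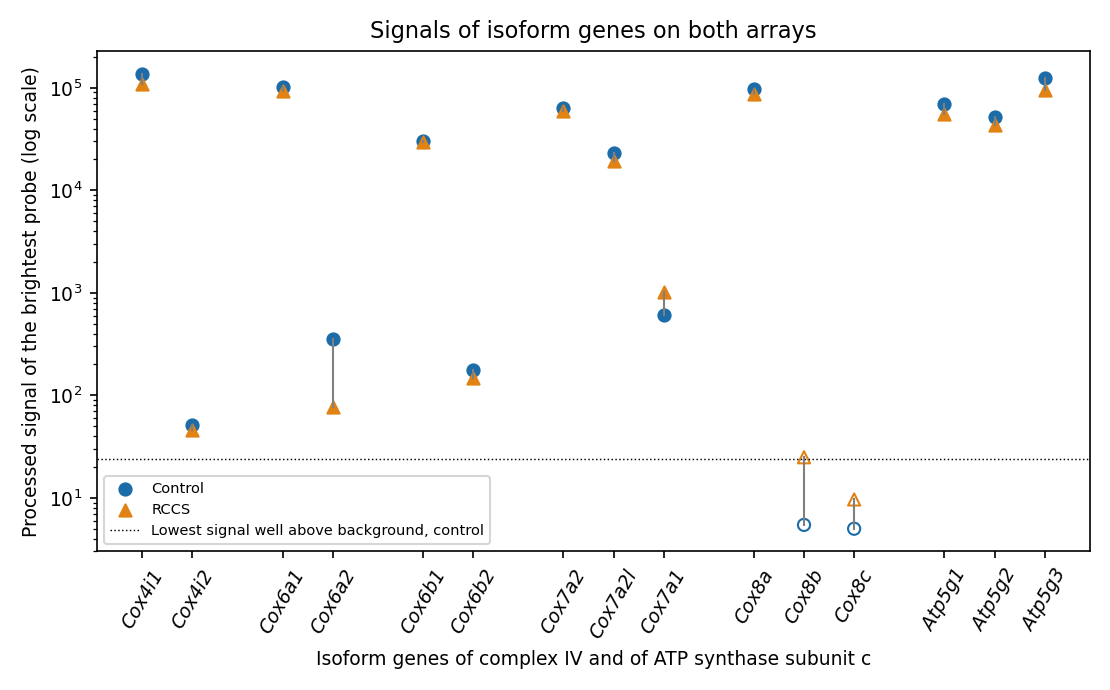
Processed signal (log scale) of the brightest probe of isoform genes of complex IV and of ATP synthase subunit c, with circles for the control array and triangles for the RCCS array; open symbols mark genes not measured on both arrays, and the dotted line is 24.2, the lowest signal well above background on the control array. Each pair of symbols is to be read for its own gap, since heights of different probes are not comparable. The gap is widest for Cox6a2 among measured genes (353 to 77.6), and the triangle lies above the circle for Cox7a1 and for Cox8b and Cox8c, which were not measured on both arrays.

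The 12 broadly expressed complex IV genes had a median of -0.32 (0.04 trend-corrected) and ran from -0.53 to -0.15. Cox4i1, the regulatory subunit that binds adenine nucleotides, read 137724 and 108420 (-0.53, or -0.14 trend-corrected), and its hypoxia-linked isoform Cox4i2 was dim at 51.7 and 45.9 (-0.36, half-width 0.55). Cox7c was at -0.47. Cox7b, with 58240 and 59708, was highest of the broad genes at -0.15 (0.21 trend-corrected), followed by Cox6b1 at -0.20 and Cox6c at -0.28. Cox5a and Cox5b, which sit on the matrix side, were at -0.32 and -0.35, Cox8a at -0.35 and Ndufa4 at -0.32. Cox6b2, the testis isoform of subunit VIb, was dim (176 and 146, at -0.45).

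ATP synthase had 15 of 15 genes below 0 and a median of -0.43 (-0.08 trend-corrected), with 10 below the trend. The catalytic head and its stalk contacts (Atp5a1, Atp5b, Atp5c1, Atp5d, Atp5e and Atp5o) had a median of -0.47 (-0.12), and the 9 genes of the membrane part and the stator -0.35 (-0.0014). Atp5b, the catalytic beta subunit, was lowest at -0.57 (-0.20 trend-corrected, half-width 0.23); its 3 probes read 147444 and 124509, 77594 and 56857, and 39788 and 28901, and their log2 ratios ran from -0.65 to -0.43. Atp5a1, the alpha subunit, read 62274 and 48340 by its brighter probe (mean -0.47). Atp5c1, the rotating gamma subunit, was at -0.38. The oligomycin-sensitivity subunit Atp5o, which ties the stator to the head, was at -0.54. The 3 genes for the identical subunit c of the rotor ring, Atp5g1, Atp5g2 and Atp5g3, differ in their import signals, and stood at -0.51, -0.45 and -0.56. Highest were Atp5j (70276 and 72168, at -0.15, or 0.22 trend-corrected), Atp5f1 at -0.15 and Atp5e at -0.28. The value of Atp5f1, the stator subunit b now called Atp5pb, is a mean of probes at -0.36, -0.19 and 0.10, the last of them a RIKEN probe with signals of 67.5 and 82.3.

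Probes of 1 gene showed how far a log2 ratio varied from probe to probe. They share the same RNAs, arrays and scaling, so their agreement is no check on a difference between the groups. Of 80 measured genes 59 rested on 1 measured probe, and in the other 21 the highest and lowest log2 ratio lay a median of 0.12 apart. Only Cox4nb had probes more than 0.5 apart (-0.47 at 5661 and 4646, and 0.15 at 50.4 and 63.7). Of 10 probes to RIKEN cDNAs, 5 were not above background on both arrays, and the others were dim. Atp5s read 408 and 481 by its brighter probe (mean -0.02).

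Genes around the chain were set beside the subunits, with medians as a description and no test. After trend correction the 77 measured subunits had a median of -0.02. The 34 measured assembly factors outside the name rule had -0.19. Before correction the medians were -0.35 for the subunits and -0.32 for these assembly factors, so their order depended on the correction. Lowest was Foxred1, which helps build complex I, at -1.02 before and -0.90 after trend correction, as the mean of probes at -1.14 and -0.90. At least 1.5-fold lower were 5 before correction and 3 after, against 14.8% and 9.72% of all measured genes, and 0 were higher in either case. They included Cox18 (-0.84 before and -0.61 after) and Cox15 (-0.78 and -0.67), which act in the insertion of subunits and in heme A synthesis. The counts for the lists that follow stand beside the same shares of all measured genes, and their medians are trend-corrected. Before correction the medians were -0.39 for electron carriers and ubiquinone synthesis and -0.48 for the tricarboxylic acid cycle. They were -0.24 for mitochondrial DNA transcription and upkeep and -0.23 for carriers, uncoupling proteins and porins. Electron carriers and ubiquinone synthesis genes had -0.25 over 18 measured, and 5 were at least 1.5-fold lower before correction and 2 after. Lowest was Pdss1, which makes the ubiquinone side chain, at -0.89 before and -0.76 after. Cyc1, the cytochrome c1 subunit of complex III that the name rule misses, was at -0.69 before and -0.34 after (53680 and 37883). Genes of the tricarboxylic acid cycle had -0.18 over 19, with 5 at least 1.5-fold lower before correction and 2 after. Among them were Idh2 (-0.90 before and -0.69 after) and Suclg2 (-0.81 and -0.61). Genes of mitochondrial DNA transcription and upkeep had -0.08 over 19, with 5 at least 1.5-fold lower before correction and 3 after. Before correction these included the coactivator Ppargc1b (1489 and 904 by its brightest probe, mean -0.93), Gabpb1, which pairs with the ETS factor Gabpa (-0.89), and the helicase Twnk (-0.92); Nrf1 was at -0.55, Esrra at 0.02 and Ppargc1a was not above background. The adenine nucleotide carriers, uncoupling proteins and porins had -0.03 over 8, with 0 past 1.5-fold in either direction.

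The 75 mitochondrial ribosomal protein genes had a median of -0.46 before and -0.19 after trend correction. Of them 22 were at least 1.5-fold lower before correction and 3 after, against 14.8% and 9.72% of all measured genes. In either case 0 were higher. The 20 measured subunits of the vacuolar proton pump, which resembles ATP synthase but acidifies lysosomes and the osteoclast's resorption space, had 0.32 after correction. Their median before correction was 0.07. At least 1.5-fold higher were 4 before correction and 6 after, against 9.72% and 12.3% of all measured genes, and 1 was lower in either case. Of 13 mitochondrially encoded subunits 0 are named on the arrays by symbol. By their descriptions 3 probes, chosen after their values were seen, read such transcripts: cytochrome c oxidase subunit I (175520 and 216255), subunit II (325206 and 365277) and NADH dehydrogenase subunit 4 (112250 and 123616). Their log2 ratios were 0.12, -0.02 and -0.05, or 0.53, 0.42 and 0.34 after trend correction. The last figures rest on the thin bright end of the trend, where 60, 6 and 175 measured probes were brighter.

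**Figure D4:**
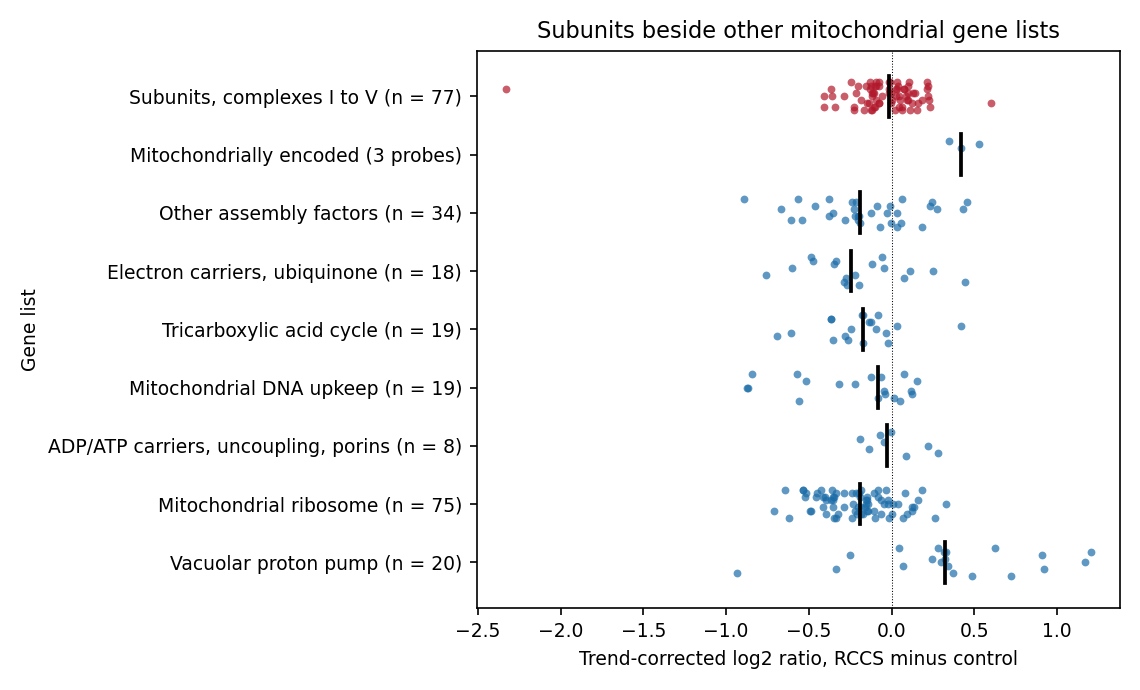
Trend-corrected log2 ratio (RCCS minus control) of each measured gene of the respiratory chain and ATP synthase (red) and of other mitochondrial gene lists and the vacuolar proton pump (blue), with black bars at the medians. The subunits centre at -0.02, assembly factors and mitochondrial ribosomal proteins at -0.19, and the vacuolar pump at 0.32. Before trend correction the medians of these 4 lists, in that order, were -0.35, -0.32, -0.46 and 0.07.

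Promoters were read for sequence that the subunit genes share, since the choice of genes did not use it. RefSeq promoters (GRCm38.p6, 250 bases before to 50 after the start) matched 66 of the 80 subunit and assembly genes. They were searched on both strands for the NRF1 palindrome GCGCANGCGC, the ETS core CCGGAAG and the YY1 core AAGATGG, letters bound by factors known to act on respiratory genes. The NRF1 letters were in 17 members (25.8%), against 10.6% of 7853 measured genes with a promoter and 5.19% of all 27025 genes. The ETS letters were in 17 (25.8%), against 18.3% and 9.93%, and the YY1 letters in 11 (16.7%), against 8.28% and 7.28%. Of 17492 protein-coding genes, 7.17% held the NRF1 letters, 12.9% the ETS letters and 7.18% the YY1 letters. Measured genes were matched to promoters by the arrays' names and members by updated symbols, and the measured genes include members. The 3 tissue-restricted isoforms with a promoter (Cox6b2, Cox7a1 and Cox8b) held 0 of these motifs, but they are too few to set apart from the other members. Cox6a2 was not among the promoters matched. Measured members with and without the NRF1 letters had trend-corrected medians of -0.02 (17 genes) and -0.0026 (48 genes), those with and without the ETS letters 0.02 and -0.07, and those with and without the YY1 letters 0.06 and -0.04. A match is a description and shows no binding.

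The promoters below contrast Cox6a1 and Ndufs6, broadly expressed genes that hold NRF1 letters, with Uqcrfs1 and Cox7a1, which hold none of the 3 motifs. Before trend correction Uqcrfs1 was the lowest broadly expressed member and Cox7a1 the 1 member above 0. Holding none was not particular to them. Ndufa13 and Cox7b, above the trend, and Ndufa10 and Ndufab1, below it, also held none. Capitals mark motif letters.
Cox6a1, chr5:115348909-115349208, minus strand: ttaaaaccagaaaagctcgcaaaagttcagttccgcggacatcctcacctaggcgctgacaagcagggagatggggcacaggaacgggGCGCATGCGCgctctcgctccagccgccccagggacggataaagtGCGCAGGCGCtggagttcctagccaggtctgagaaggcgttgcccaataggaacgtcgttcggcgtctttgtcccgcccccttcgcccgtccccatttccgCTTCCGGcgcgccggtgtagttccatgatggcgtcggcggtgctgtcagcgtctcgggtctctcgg
Ndufs6, chr13:73328433-73328732, minus strand: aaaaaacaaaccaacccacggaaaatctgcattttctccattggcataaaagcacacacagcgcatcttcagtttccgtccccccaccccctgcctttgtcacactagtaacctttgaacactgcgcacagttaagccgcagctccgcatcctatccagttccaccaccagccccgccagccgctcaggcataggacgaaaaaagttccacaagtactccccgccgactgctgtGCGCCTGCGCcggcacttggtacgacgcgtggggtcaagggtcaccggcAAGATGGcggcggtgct
Uqcrfs1, chr13:30545267-30545566, minus strand: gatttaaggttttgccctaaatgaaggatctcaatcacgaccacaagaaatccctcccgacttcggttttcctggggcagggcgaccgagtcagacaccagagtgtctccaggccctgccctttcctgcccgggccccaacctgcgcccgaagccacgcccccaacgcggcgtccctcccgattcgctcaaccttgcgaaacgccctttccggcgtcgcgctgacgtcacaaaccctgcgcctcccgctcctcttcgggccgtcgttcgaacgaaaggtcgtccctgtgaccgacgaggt
Cox7a1, chr7:30183921-30184220, plus strand: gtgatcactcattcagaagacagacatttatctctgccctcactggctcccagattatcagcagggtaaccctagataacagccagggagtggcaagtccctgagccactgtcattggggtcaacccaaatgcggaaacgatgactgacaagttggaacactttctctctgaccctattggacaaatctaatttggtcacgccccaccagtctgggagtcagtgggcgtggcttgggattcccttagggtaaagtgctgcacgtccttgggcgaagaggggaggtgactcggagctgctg
Cox6a1 holds 2 NRF1 matches and 1 ETS match, and Ndufs6 holds 1 NRF1 match and 1 YY1 match.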

How the data were processed

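The deposited scanner files hold spot intensities, made with Agilent Feature Extraction 9.5.3.1 per the file headers: background-subtracted, detrended within the array and not scaled between arrays. Both arrays lay on 1 slide and were scanned together, per the file headers. The authors' deposited ratio table is, set against the scanner values, each array's signal over a factor of its own; its direction and centring are not stated, and its median was 0.06 in both columns. The deposited flags (0 or 1 per spot) were used for background and outliers.

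Spots called outliers on either array (211) were left out and spots of 1 probe averaged; 0 spots were saturated. The main value was log2 of the signal over the array's 75th percentile (849 control, 966 RCCS), RCCS minus control; a gene took the mean of its measured probes. A probe was measured where at least 50% of its spots were well above background on both arrays. The trend was a limma 3.58.1 loess (span 0.3, 4 iterations) of log2 ratio on mean log2 signal, checked on simulated data. These held a straight trend and changed probes drawn at random over all signals. They did not test whether the fit would take up a shift shared by bright genes. By accession 22950 probes, 99 of them members', matched RefSeq (GRCm38.p6); the arrays' build was not given in the sources used here. Names in the text are the arrays'. Genes named are those past 1.5-fold, the 3 highest and 3 lowest of each complex, core subunits, isoform families, unmeasured members, genes whose probes lie over 0.5 apart and matches that are no subunit; others were named after their values were seen. One core subunit that the rule names is not reported here. Members and lists were chosen with earlier results of these data known. The alternatives tried were other scalings, quantile normalization, normexp, the ratio table, other filters, the brightest probe, outliers kept and updated symbols.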

Additional observations from a re-analysis of the deposited data

How the results depend on the processing

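With 1 array a group no replicate could be left out. No paired analysis was possible because each group has 1 array. Values are medians relative to all measured genes. A shift of over 0.20, the spot error of a single gene, was the bar for listing one, which is wide for a median, so some smaller shifts are given too. Over 13 alternatives the median of all members ran from -0.22 to -0.0021, the last under quantile normalization, and was below 0 in 13 of 13. Median scaling, the 75th percentile of measured probes and spike-in scaling repeated the main -0.21, because a single factor cancels in a relative median. The ratio table, also 1 factor per array, gave -0.20. These settings were no check on the sign. Loess trend correction gave -0.01 for all members and -0.0006 for complex I, where the main values were -0.21 and -0.18. Quantile normalization gave 0.0592 for complex I, -0.07 for II (main -0.27), -0.0953 for III, 0.0798 for IV and -0.0718 for V. Trend correction by loess gave -0.10 for complex III, 0.0378 for IV and -0.0722 for V, and by 20 bins 0.0495 for I, -0.0787 for III, 0.0463 for IV and -0.0522 for V. Complex I changed sign with the bins and quantile normalization, and complex IV with all 3 of these settings. The count of members at least 1.5-fold lower, 3, became 1 with either trend correction, quantile normalization, the 75th percentile of measured probes or spike-in scaling; the count at least 1.5-fold higher, 0, became 1 with either trend correction, median scaling, the 75th percentile of measured probes or spike-in scaling. Without a filter on dim probes 2 members were 1.5-fold higher or more and 1 was 2-fold higher or more, from Cox8b and Cox8c, which were not measured. The count at least 2-fold lower was 1 in 13 of 13. The causes of the other shifts were not tested.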

Other observations

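Some subunit genes are on the arrays under older names that the name rule does not take. Through their accessions, 9 further genes had a matching current symbol, and 8 of them were measured. Uqcr10, a small subunit of complex III, read 56592 in control and 49669 in RCCS (log2 ratio -0.37, or -0.02 after trend correction). Atp5md and Atp5mpl, small membrane subunits of ATP synthase, were at -0.35 and -0.33 (-0.0082 and -0.0003 trend-corrected). Ndufv3, an accessory subunit of complex I, was at 0.10 as the mean of 3 probes that ran from -0.27 to 0.33. Among complex I assembly factors, Ndufaf4 read 14991 and 11138 by its brightest probe (mean -0.63, or -0.40 trend-corrected), Ndufaf5 was at -0.55, Ndufaf7 at -0.23 and Ndufaf3 at -0.07. Cox7b2, the testis isoform of subunit VIIb, was not above background (6.13 and 6.41).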
